A study of Mus musculus with 6 samples.

Results

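The cells described here are the C1q-high macrophages without Ccl8 among leukocytes sorted from mouse tumours. They were picked cell by cell from the unique molecular identifier (UMI) counts of single-cell RNA sequencing, where a UMI stands for 1 captured transcript. Barcodes with fewer than 300 genes, fewer than 500 UMIs or more than 10% mitochondrial UMIs were removed. It then needed at least 3 UMIs of the lysozyme gene Lyz2, at least 1 UMI of Csf1r, Adgre1 or Cd14, and none of Cd3e, Flt3, Cxcr2 and Retnlg. The summed UMIs of C1qa, C1qb and C1qc had to reach 50 per 10000 UMIs of the cell, with fewer than 3 UMIs of Ccl8, and cells holding both Mki67 and Top2a were left out. The rule found 3095 cells among 39424 kept barcodes, of 41679 barcodes in all. They were 222, 144 and 291 cells in the cko samples and 620, 1034 and 784 in the ctr samples. The same gate held 7006 cells with less C1q, called C1q-low cells here, and 409 C1q-high cells with at least 3 UMIs of Ccl8, called Ccl8-positive cells.

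All 6 samples were live CD45+ cells, a pan-leukocyte surface marker, sorted from subcutaneous MC38 tumours at day 25. MC38 is a mouse colon carcinoma cell line, and the inoculated cells were wild type. The cko mice (3 samples) carry a tamoxifen-inducible knockout of Ctcf, given in the labels as a knockout in Treg cells, and the ctr mice (3 samples) have wild-type Ctcf in Treg cells. Whether the ctr mice received tamoxifen, the Cre line that drives the deletion, and the strain, age and sex are not given in the sources used here. The labels name the 3 samples of each group biological replicates. The macrophages are therefore not the cells labelled as deleted, and the comparison asks how they differ between hosts of either genotype.

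C1q is the recognition subunit of the classical complement pathway, built from the products of C1qa, C1qb and C1qc, and tissue macrophages are its main source. In tumours, macrophages arise largely from blood monocytes that carry Ly6C, and cells rich in C1q and apolipoprotein E are known for uptake of dead cells and handling of lipid. Arg1, Vegfa and Spp1 are commonly used to describe another set of tumour macrophages, found near poorly perfused tissue.

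The label was checked against its 4 markers in CPM, the UMIs of a gene per 1000000 UMIs of the summed cells. C1qb, which is part of the gate, stood at 4275 to 7145 CPM in the C1q-high Ccl8-low cells, against 375 to 511 CPM in C1q-low cells and 4.60 to 22.9 CPM in T cells. Apoe was higher than in C1q-low cells in each of the 6 samples, with a median log2 ratio of 1.57. It was higher still in Ccl8-positive cells in each sample, at 9111 to 29127 CPM, against 3724 to 14313 CPM in the C1q-high Ccl8-low cells. Fcgr1, a high-affinity Fc receptor, ranged from 383 to 602 CPM, close to the 308 to 559.6 CPM of C1q-low cells. Apoc2 did not mark the cells in ctr tumours, where it reached 315 to 348 CPM against 395 to 413 CPM in C1q-low cells. The monocyte transcript Ly6c2 was abundant, at 1599 to 3278 CPM, against 56.9 to 778 CPM in Ccl8-positive cells and 2812 to 4593 CPM in C1q-low cells. Folr2 and Cd163, markers of resident macrophages, were at or near 0, with at most 0.898 CPM and 0.144 CPM. The gate fixed the difference in C1qb. Of the other 3 markers, Apoe and Fcgr1 were higher in these cells than in C1q-low cells in every sample. For Fcgr1 the difference was small and the ranges overlapped, and Apoc2 did not set the cells apart. They are called C1q-high Ccl8-low cells below.

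Other genes outside the gate were compared with each neighbour separately, as a description without a test. Log2 ratios were taken after adding 1 CPM to each level. Beside Apoe, the tetraspanins Cd81 and Cd63, the B cell family receptor Cd72 and the membrane protein Ms4a7 were higher than in C1q-low cells in all 6 samples. Cd81 had the largest median log2 ratio, 3.13, and Ms4a7 had 2.43. Olfml3, Ccl12 and Zmynd15 were also higher. Ifitm6 (-2.53), the protease inhibitor Slpi (-2.14), Cxcl3 (-2.11), Ccl17 (-2.05), the monocyte genes Chil3 (-1.77), F13a1 (-1.57) and Hp (-1.46), and Gsr (-1.62) were lower than in C1q-low cells. Set against Ccl8-positive cells, the decoy receptor Il1r2 (5.46), Areg (4.93), Hp (4.61), Ifitm1 (4.54), Inhba (4.39), Slpi (4.38), Trem1 (4.30) and Clec4e (3.81) were higher. The sizes of these ratios are rough, since the cko samples held 16, 4 and 37 Ccl8-positive cells. Each of these genes was at 0 CPM in the Ccl8-positive cells of at least 1 sample. For Ifitm1 the ratio ran from 1.38 to 10.5 between samples. Clec4b1 (-2.63), Igfbp4 (-2.58), Klra17 (-2.58), Cadm1 (-2.55), Smagp (-2.47), Gbp2b (-2.27), Cd38 (-2.23) and Tspan4 (-2.20) were lower in the C1q-high Ccl8-low cells.

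The libraries held 45322797 to 55515267 UMIs each, and the summed C1q-high Ccl8-low cells 1321405 to 2500838 UMIs in cko and 5569702 to 11006239 UMIs in ctr. Their median depth was 7075, 9075.5 and 8185 UMIs per cell in cko and 8874.5, 10515.5 and 8533 in ctr. The cko samples 1 and 3 shared 197 paired T cell receptor clonotypes, of 616 and 711, while no other pair of samples shared more than 3. These 2 samples are labelled as separate replicates, but the labels do not say whether they come from the same animal. If they do, cko holds 2 animals rather than 3, so results are also given with both added together as 1 sample. Pairs of libraries shared 41 to 81 barcodes, and at most 1 barcode of a C1q-high Ccl8-low cell. Ctcf itself had 29.1, 29.5 and 35.2 CPM in the cko cells, against 35.9, 35.3 and 31.7 CPM in the ctr cells, a log2 fold change of -0.06 ± 0.14 (SE, adjusted p = 0.827). The Treg factor Foxp3 was at most 0.757 CPM.

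C1q-high Ccl8-low cells were scarcer in cko tumours in all 3 samples. They made up 3.25%, 2.35% and 4.20% of kept cells in cko, with 95% Wilson intervals of 2.85 to 3.70, 2.00 to 2.76 and 3.75 to 4.70. In ctr they made up 9.67%, 17.7% and 10.8%, with intervals of 8.97 to 10.4, 16.7 to 18.7 and 10.1 to 11.5, which cover counting error only. The groups did not overlap, and the means were 3.27 ± 0.925% in cko and 12.7 ± 4.34% in ctr (SD, n = 3 each). Among all monocytes and macrophages of the gate they were 14.1%, 15.8% and 16.7% in cko, against 41.7%, 38.6% and 37.1% in ctr. The means of 15.5 ± 1.33% in cko and 39.1 ± 2.35% in ctr differed by -23.6 percentage points. An exact two-sided permutation test gave p = 0.1 for both shares, the smallest p that 3 against 3 samples allow. With cko samples 1 and 3 added together, the shares of kept cells were 3.73% and 2.35% in cko, and those of monocytes and macrophages 15.5% and 15.8%, with an exact p = 0.2 for both, the smallest that 2 against 3 samples allow. As a share of C1q-high cells of either Ccl8 class, they were 93.1 ± 4.29% in cko and 87.0 ± 4.37% in ctr, with an exact p = 0.2.

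**Figure D1:**
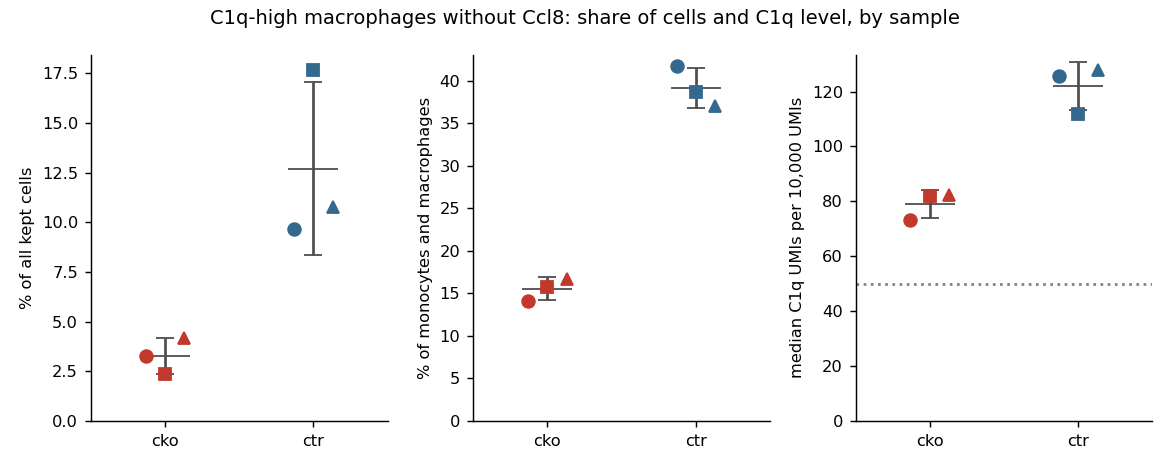
C1q-high Ccl8-low cells per sample, as a percent of kept cells (left), as a percent of monocytes and macrophages (middle), and their median C1q UMIs per 10000 UMIs (right, dotted line at the gate's minimum of 50); bars are group means and error bars SD over 3 samples, with cko left of ctr. In each panel the 3 cko points lie below the 3 ctr points.

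The amount of C1q per cell differed within the gate as well. The median C1q level was 73.1, 82.0 and 82.2 UMIs per 10000 in cko cells and 126, 112 and 128 in ctr cells. This value was used to choose the cells and is not tested. Cells with at least 100 C1q UMIs per 10000 were 1.03 ± 0.307% of kept cells in cko and 7.73 ± 2.34% in ctr. Cells between 50 and 100 were 2.23 ± 0.702% in cko and 4.98 ± 2.00% in ctr, so the difference fell to -2.75 percentage points in that band. Fewer cells of one kind and less C1q per cell cannot be told apart by a threshold.

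The edge of the C1q gate cut through a continuous range of cells. Just inside, at 50 to 60 C1q UMIs per 10000, lay 143 cko and 203 ctr cells, and just outside, at 40 to 50, lay 168 cko and 200 ctr cells. Apoe was 1799 to 2076 CPM inside and 1567 to 2049 CPM outside in cko, and 5394 to 8722 CPM inside and 5378 to 8002 CPM outside in ctr. Ly6c2 inside the edge was 2218 to 3180 CPM in cko and 2577 to 4492 CPM in ctr. At the Ccl8 edge, 12 cko and 60 ctr cells had 2 UMIs, and 11 cko and 36 ctr cells outside it had 3.

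Across genes, the UMIs of the cells were summed per sample and tested with edgeR's quasi-likelihood test. Of 9679 genes that passed the filter on low counts, 739 were higher in cko (7.64%) and 492 lower (5.08%) at an adjusted p under 0.05, together 1231 genes (12.7%). These shares are the background for the counts of every gene list below. The median log2 fold change of all genes tested was -0.01. The 3 cko values were wholly above or wholly below the 3 ctr values in 33.4% of the genes, 1291 higher in cko (13.3%) and 1940 lower in cko (20%). With cko samples 1 and 3 added together, 511 genes were higher and 308 lower. The total depended on single libraries, with 538 genes called without cko sample 1, 798 without ctr sample 2 and 727 without ctr sample 3. Restricting both groups to the band between 50 and 100 C1q UMIs per 10000 left 324 genes higher and 194 lower.

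**Figure D2:**
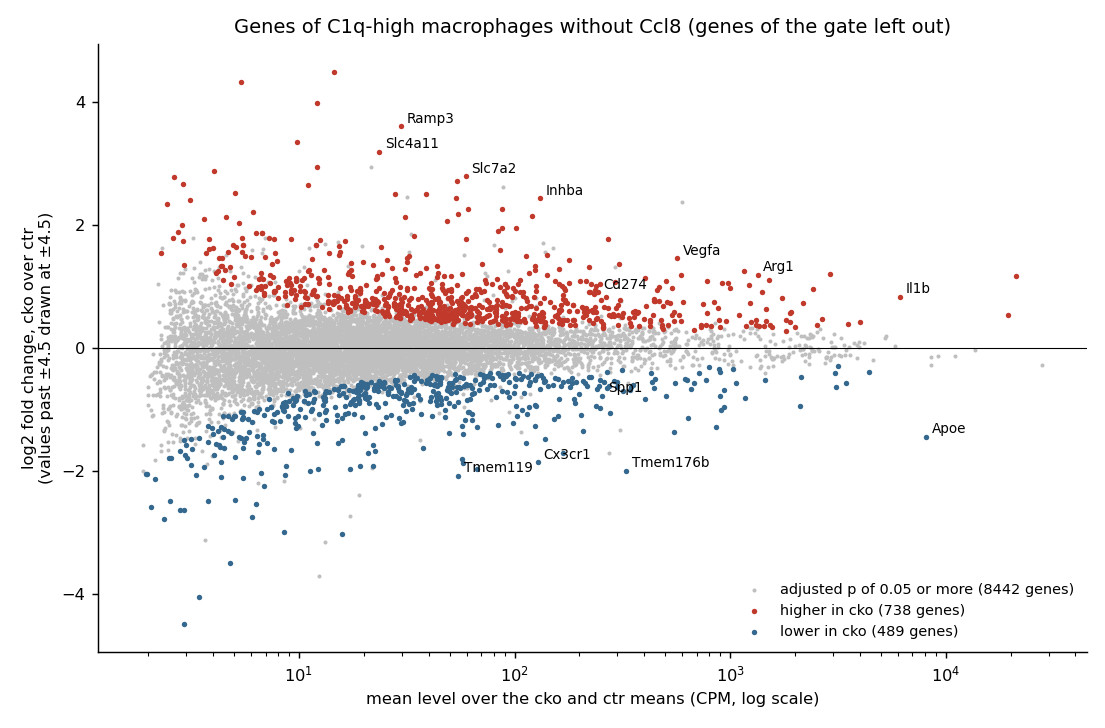
Mean level (CPM, log axis) against log2 fold change (cko over ctr) of each gene tested in C1q-high Ccl8-low cells, genes of the gate left out; colours mark genes called higher in cko, called lower or not called, and the few changes past the limits of the vertical axis are drawn at those limits. Some of the genes described are named, with Ramp3 and Slc7a2 above 0 and Tmem119, Tmem176b and Apoe below it.

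The genes of largest change were picked among called genes with at least 30 CPM in the higher group and no overlap between groups. Gate genes, mitochondrial and ribosomal genes, T cell receptor and immunoglobulin genes and unnamed gene models were left out. Lack of overlap in the genes picked is therefore given by the rule. The 10 of largest rise in cko were led by Ramp3 and included 2 secreted ligands and 2 matrix proteases. Ramp3, a partner protein of the calcitonin-like receptor (chr11:6658521-6677475, GRCm38, plus strand), had 71.5, 49.2 and 43.6 CPM in cko cells, against 4.67, 3.18 and 6.49 CPM in ctr cells. All 3 cko samples lay above all 3 ctr samples, a log2 fold change of 3.61 ± 0.28 (SE, adjusted p = 3.13e-05). Slc7a2, a transporter of arginine and other cationic amino acids (chr8:40862396-40922308), had 96.4, 126 and 87.6 CPM in cko, against 20.3, 14.1 and 12.3 CPM in ctr. Its groups did not overlap either, with a log2 fold change of 2.80 ± 0.20 (adjusted p = 1.11e-05).

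Inhba, which encodes the subunit of activin A, had 195, 260.3 and 209 CPM in cko, against 36.8, 37.9 and 52.6 CPM in ctr (log2 fold change 2.44 ± 0.16, adjusted p = 2.01e-06). Nrg1, a ligand of the ErbB receptors, had 135, 158 and 138 CPM in cko, against 38.4, 25.2 and 30.3 CPM in ctr (2.27 ± 0.16, 1.81e-06). Both ligands were higher in each cko sample than in any ctr sample. The other genes of largest rise were the bicarbonate transporter family member Slc4a11 (3.20), the matrix proteases Mmp19 (2.71) and Mmp12 (2.26), the glycolipid enzyme B3gnt5 (2.52), the antioxidant enzyme Srxn1 (2.51) and the interleukin-7 receptor Il7r (2.45). The call for Ramp3 was lost with equal numbers of cells per sample (adjusted p = 0.23), and those for Il7r (0.135) and Mmp12 (0.181) at C1q of at least 100 per 10000.

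The 10 genes of largest fall by the same rule were led by membrane proteins. Ighm, left out as an immunoglobulin gene, changed by -1.97 and is described below. Tmem119, a membrane protein used to mark microglia (chr5:113793729-113800516, minus strand), had 18.8, 18.2 and 23.2 CPM in cko, against 96.2, 86.1 and 86.1 CPM in ctr. The groups were far apart, with a log2 fold change of -2.08 ± 0.14 (adjusted p = 1.81e-06). Tmem176b (chr6:48833818-48841496, minus strand) had 123, 127 and 135 CPM in cko, against 499, 520.1 and 576 CPM in ctr, a change of -1.99 ± 0.11 (2.22e-07). Its neighbour Tmem176a, which encodes a related membrane protein, changed by -1.71 ± 0.16 (3.30e-05).

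Cx3cr1, the receptor of the chemokine fractalkine (chr9:119901616-120069879, minus strand), had 53.4, 31.8 and 73.2 CPM in cko, against 128, 245 and 242 CPM in ctr. Every cko sample lay below every ctr sample, and the change of -1.86 ± 0.37 passed the test (adjusted p = 0.0281). This call depended on single libraries. It was lost without cko sample 1 (adjusted p = 0.117), cko sample 2 (0.0527), ctr sample 2 (0.0782) or ctr sample 3 (0.0716), and with cko samples 1 and 3 added together (0.0726). Olfml3, a secreted glycoprotein, changed by -1.87, the prostaglandin D2 synthase Hpgds by -1.92, the co-chaperone Bag3 by -1.81 and the ribonuclease Ang by -1.68. The B cell receptor chain Cd79b (-1.91) and its adaptor Blnk (-1.71) were also among the 10, at 7.99 ± 4.12 CPM in cko and 30.5 ± 6.65 CPM in ctr for Cd79b. The calls for Hpgds, Cd79b and Blnk were lost at C1q of at least 100 per 10000 (adjusted p = 0.0508, 0.103 and 0.107).

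**Figure D3:**
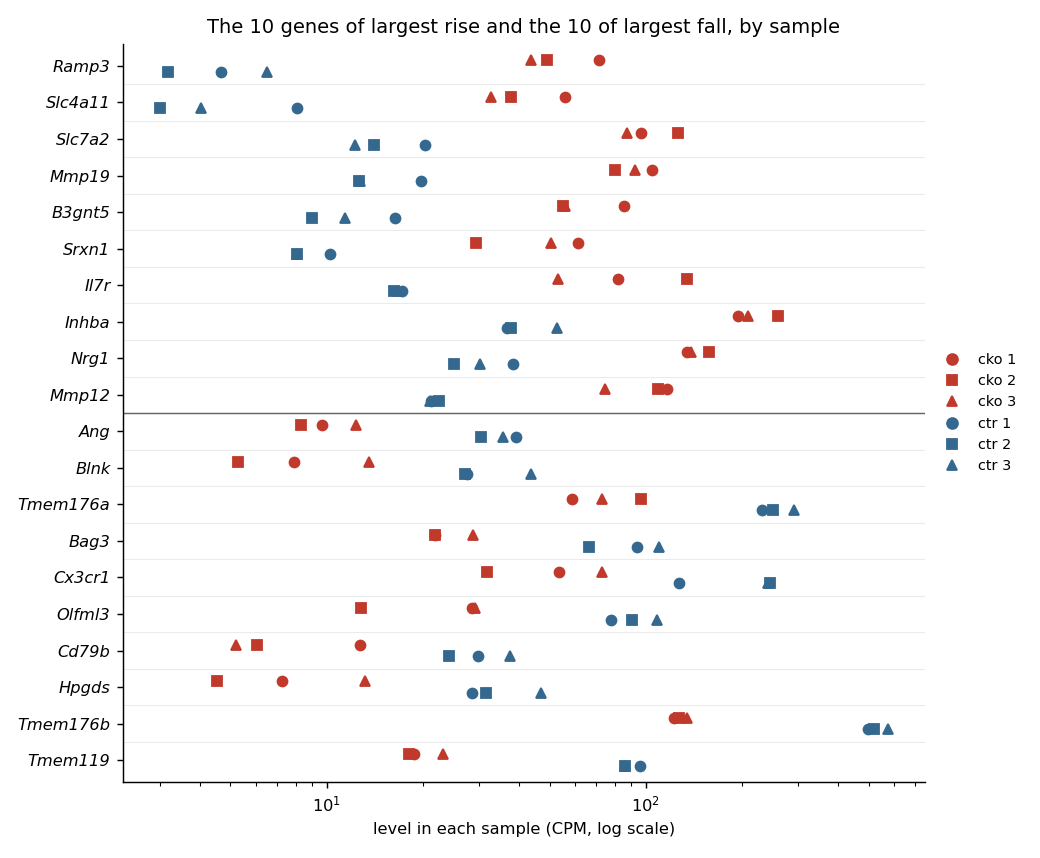
CPM per sample (log axis) of the 10 genes of largest rise (above) and the 10 of largest fall (below) in C1q-high Ccl8-low cells; each point is 1 sample, with cko drawn above ctr in each row. In all 20 genes the 3 points of either group lie wholly on one side of the other group, as the rule for picking them required.

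Apolipoprotein E fell and the Fc receptor and phagocytic receptors did not pass the test. Apoe (chr7:19696109-19699188, minus strand), a lipid carrier, had 3724, 3861 and 5129 CPM in cko, against 14313, 10685 and 10968 CPM in ctr. No cko sample reached the ctr range, a 2.73-fold difference with a log2 fold change of -1.45 ± 0.14 (adjusted p = 7.05e-05). Apoc2, a cofactor of lipoprotein lipase, had 133, 117 and 238 CPM in cko, against 347, 348 and 315 CPM in ctr (-0.98 ± 0.21, adjusted p = 0.017). Its call was lost without cko sample 1 (0.0787) or ctr sample 1 (0.0575).

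The lipid receptor Trem2 had 292, 300.4 and 375 CPM in cko, against 455, 399.5 and 429 CPM in ctr. Its groups did not overlap, but the change of -0.35 ± 0.11 missed the threshold (adjusted p = 0.0529). Trem2 passed it in 6 of 21 alternatives, among them without cko sample 3 (-0.45, 0.0342), with a lowest adjusted p of 0.0129. Fcgr1 had -0.20 ± 0.12 (0.297), the apoptotic cell receptor Mertk -0.30 ± 0.31 (0.583), the transcription factor Maf -0.42 ± 0.25 (0.325) and the mannose receptor Mrc1 0.00 ± 0.29 (0.996). The macrophage identity list held 18 genes, of which the 4 used in the gate were left out of the counts. Among these, Cd14 had a higher mean in cko (2629 CPM, against 1602 CPM in ctr), and C1qb, Csf1r and Adgre1 had lower ones. Of the 14 other genes, all tested, none was higher (0 also at an unadjusted p under 0.05 and by DESeq2). In that set 5 were lower, and the median log2 fold change was -0.33. The 5 were Cx3cr1, Apoe, Apoc2, the lysosomal protease Lgmn and Cd68. The count was 4 with cko samples 1 and 3 added together, 2 without cko sample 1, and 3 without ctr sample 1 or ctr sample 3. In the band between 50 and 100 C1q UMIs per 10000 it was 2.

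Of 26 tested lysosomal genes, of 28 listed, 13 were lower and 2 higher, against 5.08% lower and 7.64% higher among all genes tested, and 19 of the 26 did not overlap between groups in the lower direction, against 20% of all genes tested. The median log2 fold change was -0.37. Lgmn had 627, 410.2 and 822 CPM in cko, against 1298, 1141 and 1324 CPM in ctr (-0.96 ± 0.21, adjusted p = 0.0194). It was lower in each cko sample than in any ctr sample. The call for Lgmn was lost without cko sample 1 (0.0908), ctr sample 1 (0.0663) or ctr sample 3 (0.0637).

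Gpnmb, a glycoprotein of lipid-laden macrophages, was low throughout, at 3.64, 0.757 and 7.20 CPM in cko, against 20.1, 18.7 and 17.0 CPM in ctr (-2.00 ± 0.33, adjusted p = 0.0015). The cathepsins Ctsa, Ctsb, Ctsd and Ctsh, progranulin (Grn), the lipase Lipa, Cd68, Psap and the lysosomal regulator Tfeb were among the other genes called lower. The protease Ctsc and the transcription factor Tfec were called higher. The count of lower genes was 9 with cko samples 1 and 3 added together, 7 without cko sample 1 and 6 in the band between 50 and 100 C1q UMIs per 10000.

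Lipid genes went both ways, with 8 lower and 3 higher of 26 tested and a median of -0.09. The median was 0.03 without ctr sample 2. Beside Apoe, Apoc2 and Lipa, the phospholipid transfer protein Pltp, the phosphatase Acp5 (-1.26), the sterol enzymes Ch25h (-1.96) and Cyp27a1, and the nuclear receptor Pparg were lower. Pparg rested on few transcripts, with 0, 0 and 2 UMIs in cko, against 22, 58 and 74 UMIs in ctr (adjusted p = 0.0115). The scavenger receptors Msr1 and Olr1 and the desaturase Scd2 were higher. The count of lower genes was 5 with cko samples 1 and 3 added together, 3 without cko sample 1, 4 without ctr sample 2 and 5 without ctr sample 3, and that of higher genes was 5 without ctr sample 1. The calls for Pparg (0.0729) and Ch25h (0.146) were lost without cko sample 1, for Pparg also without cko sample 3 (0.0564) and for Ch25h without ctr sample 2 (0.0828) and with cko samples 1 and 3 added together (0.0735).

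Of the 9 genes of arginine and nitric oxide metabolism, all tested, 5 rose in cko and 1 fell, against 7.64% and 5.08% of all genes tested, with a median log2 fold change of 0.77. Arg1, the arginase that turns arginine into ornithine (chr10:24915221-24927484, minus strand), had 1878, 1924 and 1725 CPM in cko, against 975, 621 and 925 CPM in ctr. The lowest cko sample lay well above the highest ctr sample, with a log2 fold change of 1.19 ± 0.16 (adjusted p = 0.00112). In the band between 50 and 100 C1q UMIs per 10000 it was 0.68 and did not pass (adjusted p = 0.174). Nos2, the inducible nitric oxide synthase, had 154, 185 and 110.0 CPM in cko, against 55.1, 9.90 and 14.1 CPM in ctr. The groups did not overlap, but ctr sample 1 stood apart from the other ctr samples, and the change of 2.62 ± 0.81 was not called (adjusted p = 0.134). Nos2 passed in 2 of 21 alternatives, among them without ctr sample 1, where the change was 3.71 (9.23e-05).

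Among the genes of this list that rose, Slc7a2 and Arg1 were followed by the citrulline recycling enzyme Ass1 (0.77), the polyamine enzyme Odc1 (0.60) and Gch1, which makes a cofactor of nitric oxide synthase. Catalase (Cat) was lower. The call for Ass1 was lost without cko sample 1 (adjusted p = 0.0677) or cko sample 2 (0.0582). The count of higher genes was 4 with cko samples 1 and 3 added together, 3 without cko sample 1, and 1 in the band. No gene was called lower with cko samples 1 and 3 added together, nor without cko sample 1, 2 or 3 or ctr sample 3.

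Of 24 tested genes of hypoxia and glycolysis, of 26 listed, 11 rose in cko and none fell (0 also at an unadjusted p under 0.05 and by DESeq2), against 7.64% and 5.08% of all genes tested. The groups did not overlap in 17 of the 24 in the higher direction, against 13.3% of all genes tested, and the median log2 fold change was 0.61. Vegfa, the growth factor of blood vessels (chr17:46016993-46032369, minus strand), had 831, 860.4 and 778 CPM in cko, against 369, 279 and 287 CPM in ctr. No cko sample came near the ctr samples, with a change of 1.46 ± 0.12 (adjusted p = 1.11e-05), and in the band between 50 and 100 C1q UMIs per 10000 it was 1.13. Hif1a, the oxygen-regulated transcription factor, had 405, 426 and 348 CPM in cko, against 226, 186 and 171 CPM in ctr (1.08 ± 0.13, adjusted p = 0.00016). Slc16a3, the lactate exporter, had 323, 247 and 292 CPM in cko, against 164, 124 and 136 CPM in ctr (1.08 ± 0.14, 0.000206).

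The protein folding oxidase Ero1l rose by 1.22 ± 0.21 (adjusted p = 0.00516) and the protease Adam8 by 1.95 ± 0.38 (0.0308). The call for Adam8 was lost without cko sample 1 (0.0968), cko sample 2 (0.0896), cko sample 3 (0.0655) or ctr sample 3 (0.106), and with cko samples 1 and 3 added together (0.0697). The other 6 genes called were the glycolytic enzymes Hk2, Pgk1 and Pfkp, the kinase Pdk1, which holds pyruvate back from the mitochondria, the mitophagy receptor Bnip3 and the cytokine Mif. The count was 9 with cko samples 1 and 3 added together and 17 without ctr sample 1. In the band between 50 and 100 C1q UMIs per 10000, 7 were higher and 1 lower.

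Since 11 genes of the list rose, their promoters were searched for the core letters of the hypoxia response element, the site bound by hypoxia-inducible factors. The window was the 250 bases before the RefSeq start of each gene (GRCm38.p6), and the motif was ACGTG on either strand, which reads CACGT where the site lies on the other strand. Of the 10 risen genes with an entry, 5 held it, as did 5 of the 12 genes of the list that were not called, 23.3% of 7711 tested genes with an entry and 16.6% of 27025 entries in all. The 5 windows with a match are shown 5′ to 3′ on the gene's strand, with matches in capitals, since they belong to genes whose values are given here.
Hif1a (chr12:73907617-73907866, plus strand): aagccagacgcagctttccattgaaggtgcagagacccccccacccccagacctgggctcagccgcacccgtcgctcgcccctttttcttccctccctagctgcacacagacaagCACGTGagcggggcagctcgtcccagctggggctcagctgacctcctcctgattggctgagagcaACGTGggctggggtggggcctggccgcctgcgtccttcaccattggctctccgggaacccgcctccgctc
Hk2 (chr6:82774455-82774704, minus strand): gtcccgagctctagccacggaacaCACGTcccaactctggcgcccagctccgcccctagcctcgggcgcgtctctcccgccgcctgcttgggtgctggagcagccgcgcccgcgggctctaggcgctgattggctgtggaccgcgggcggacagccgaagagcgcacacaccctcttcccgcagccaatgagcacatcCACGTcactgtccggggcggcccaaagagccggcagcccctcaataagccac
Pgk1 (chrX:106186850-106187099, plus strand): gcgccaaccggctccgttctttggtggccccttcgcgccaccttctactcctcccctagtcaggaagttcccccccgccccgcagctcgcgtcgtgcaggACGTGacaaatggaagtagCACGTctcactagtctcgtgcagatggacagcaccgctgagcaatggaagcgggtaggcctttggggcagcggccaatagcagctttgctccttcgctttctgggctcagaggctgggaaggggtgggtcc
Bnip3 (chr7:138909507-138909756, minus strand): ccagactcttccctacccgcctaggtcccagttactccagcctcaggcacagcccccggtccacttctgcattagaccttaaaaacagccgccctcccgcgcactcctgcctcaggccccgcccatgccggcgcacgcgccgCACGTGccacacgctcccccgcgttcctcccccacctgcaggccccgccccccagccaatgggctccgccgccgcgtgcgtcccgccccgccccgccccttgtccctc
Slc16a3 (chr11:120948817-120949066, plus strand): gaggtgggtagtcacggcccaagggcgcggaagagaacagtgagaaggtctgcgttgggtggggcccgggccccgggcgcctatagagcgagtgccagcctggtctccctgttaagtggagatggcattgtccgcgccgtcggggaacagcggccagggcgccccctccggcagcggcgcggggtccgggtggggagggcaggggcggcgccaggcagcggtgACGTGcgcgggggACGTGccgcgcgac
Overlapping matches on both strands print as CACGTG in Hif1a and Bnip3. A match describes these letters and is not a measured site, and Vegfa, Pfkp, Pdk1, Adam8 and Mif rose with none in this window.

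The genes behind these windows had similar sizes of change. Pgk1 had 604, 606 and 566 CPM in cko, against 400.0, 382 and 366 CPM in ctr (log2 fold change 0.69 ± 0.10, adjusted p = 0.000604). Hk2 had 118, 129 and 102 CPM in cko, against 72.7, 59.1 and 57.7 CPM in ctr (0.93 ± 0.14, 0.000732). Bnip3 had 252, 235 and 182 CPM in cko, against 162, 96.7 and 94.0 CPM in ctr (0.98 ± 0.25, 0.0399). In each of these 3 genes the groups did not overlap.

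Of 19 tested matrix genes, of 22 listed, 9 were higher in cko and 3 lower, against 7.64% and 5.08% of all genes tested, with a median of 0.81. Mmp19, a secreted metalloprotease, had 105, 80.2 and 92.8 CPM in cko, against 19.7, 12.6 and 12.7 CPM in ctr (2.71 ± 0.18, adjusted p = 1.81e-06). Mmp12, the elastase of macrophages, had 116, 109.7 and 74.4 CPM in cko, against 21.2, 22.4 and 21.1 CPM in ctr (2.26 ± 0.17, 5.71e-06). Neither gene overlapped between groups. The matrix receptor Cd44, the galectin Lgals3, the protease inhibitor Timp1, thrombospondin 1 (Thbs1, 1.03), versican (Vcan, 1.87), Adam8 and the urokinase receptor Plaur were also higher. Urokinase itself (Plau) and Timp2 were lower. Vcan was low, at 10.3 ± 7.18 CPM in cko and 3.22 ± 0.167 CPM in ctr, and its call was lost without cko sample 3 (adjusted p = 0.131).

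Spp1, which encodes osteopontin, was the other gene of this list called lower. It had 132, 184 and 235 CPM in cko, against 281, 351 and 352 CPM in ctr, with no overlap (-0.78 ± 0.17, adjusted p = 0.00954). The call was lost in 5 alternatives, among them C1q of at least 30 (-0.45, 0.169) or at least 100 per 10000 (-0.52, 0.0962) and the band between 50 and 100 (-1.18, 0.0834). The matrix list kept 7 genes higher and 3 lower with cko samples 1 and 3 added together, and 4 and 1 in the band.

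Of 18 tested monocyte genes, 8 rose in cko and none fell (0 also at an unadjusted p under 0.05 and by DESeq2), against 7.64% and 5.08% of all genes tested, with a median of 0.39. S100a6, a calcium-binding protein, had 2258, 1983 and 1851 CPM in cko, against 814, 1114 and 1025 CPM in ctr (1.11 ± 0.12, adjusted p = 9.71e-05). Coagulation factor F10 rose by 1.05 ± 0.17 (0.00197). Thbs1, Vcan, S100a4, the lectin receptor Clec4e, Ly6i and Plac8 were the others. The count was 6 with cko samples 1 and 3 added together. In the band between 50 and 100 C1q UMIs per 10000 only 2 of 17 were higher and the median was 0.06, with no call for Thbs1 (0.65, 0.248) or F10 (0.49, 0.233). The summed level of the 18 genes was 13310 to 15358 CPM in cko and 9858 to 11806 CPM in ctr.

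**Figure D4:**
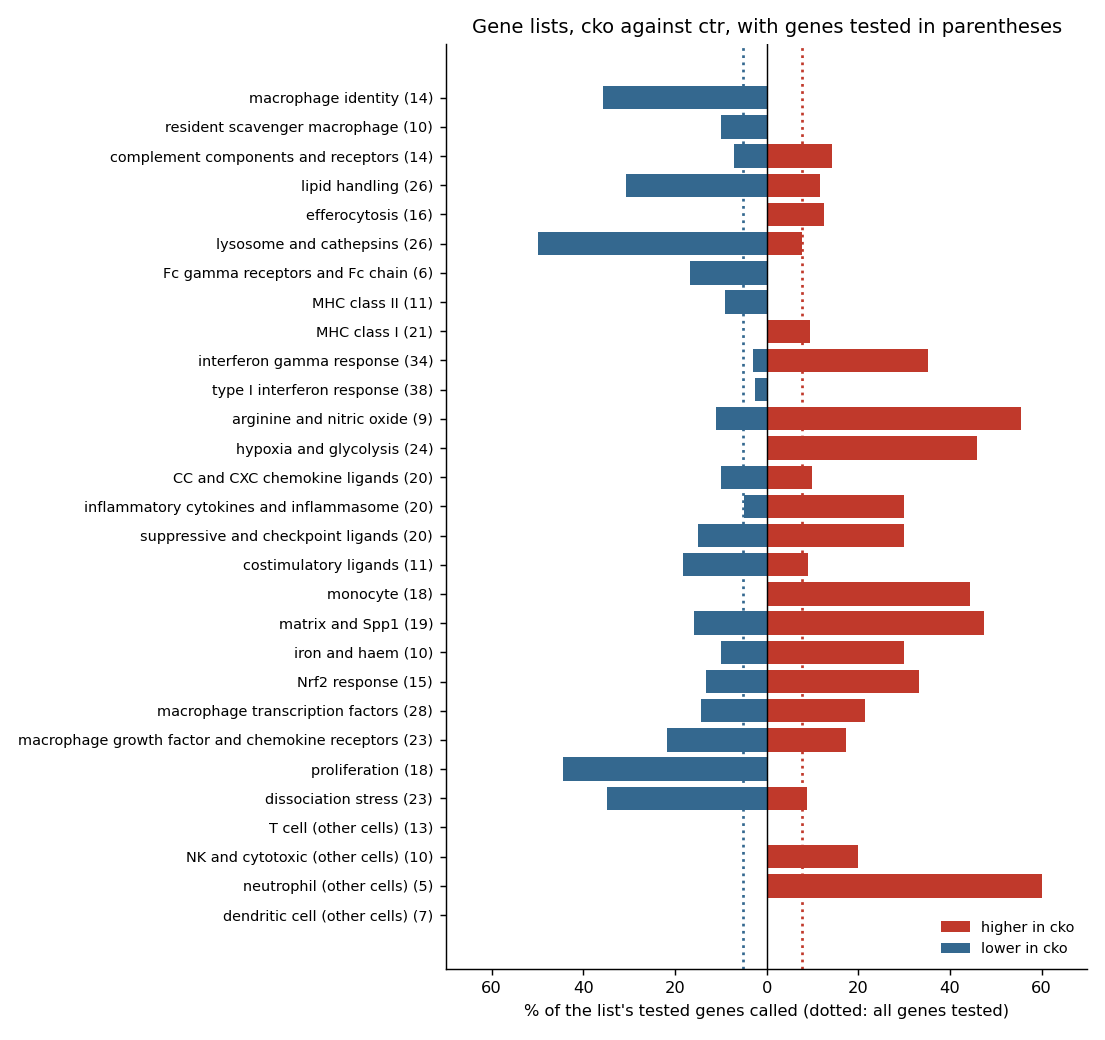
Percent of the tested genes of each list that were called higher (right) or lower (left) in cko than in ctr in C1q-high Ccl8-low cells, for lists with at least 5 tested genes; dotted lines mark the shares of all genes tested, 7.64% higher and 5.08% lower. Hypoxia and glycolysis, with 11 of 24 genes higher, and lysosome and cathepsins, with 13 of 26 lower, stand at opposite sides.

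Of 20 tested genes of the inflammatory list, 6 were higher and 1 lower, with a median of 0.32. Il1b (chr2:129364570-129371139, minus strand) had 8099, 7974 and 7282 CPM in cko, against 4397, 4601 and 4622 CPM in ctr. The groups were apart with little spread within either, a change of 0.84 ± 0.09 (adjusted p = 7.05e-05). Tnfaip2, a gene induced by tumour necrosis factor, rose by 1.78 ± 0.15 (1.76e-05), the prostaglandin synthase Ptgs2 by 1.09 ± 0.13 (0.000134) and the inflammasome sensor Nlrp3 by 0.94 ± 0.14 (0.000913). Clec4e and Casp4 were the other 2. With cko samples 1 and 3 added together, 4 of 21 tested genes were higher.

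Il12b, the shared subunit of interleukin-12 and interleukin-23, was the gene called lower. It had no UMI in the 3 cko samples, against 3.41, 7.18 and 7.07 CPM in the ctr samples, from 19, 79 and 49 UMIs (adjusted p = 0.00182). With a floor of 3 UMIs over the summed cko cells, it was at least 11.4-fold lower in cko. The median of the list is the same with Il12b at that bound. At C1q of at least 30 per 10000 its call was lost (adjusted p = 0.398). Interleukin-10 (Il10) was low in both groups, at 0, 3.03 and 6.40 CPM in cko and 6.64, 4.18 and 10.4 CPM in ctr (adjusted p = 0.469), and Tgfb1 had a change of 0.06 ± 0.11 (0.765).

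Of 20 tested chemokine genes, 2 were higher and 2 lower, near the 7.64% and 5.08% of all genes tested, with a median of 0.02, which turned to -0.02 under upper-quartile scaling. The neutrophil chemokine Cxcl2 rose by 1.21 ± 0.22 (adjusted p = 0.0128), with 3539.5, 4584 and 3902 CPM in cko, against 2211, 1253 and 1949.6 CPM in ctr. Ccl5, also made by T cells and natural killer cells, rose by 0.57 ± 0.11 (0.00345). The chemokine Ccl4 had 1313, 1115 and 1786 CPM in cko, against 2887, 2315 and 3194 CPM in ctr (-0.94 ± 0.17, 0.00532). The chemokine Ccl3 changed by -1.13 ± 0.26 (0.0364).

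In all 4 of these genes the groups did not overlap. The call for Cxcl2 was lost without cko sample 2 (adjusted p = 0.0623) or cko sample 3 (0.0625). That for Ccl3 was lost without cko sample 1 (0.127) or any ctr sample (0.0922 to 0.113), and with cko samples 1 and 3 added together (0.0626). Cxcl9 (0.42, 0.123), Cxcl10 (-0.17, 0.327) and the monocyte chemokine Ccl2 (-0.27, 0.749) were not called. Cxcl9, which draws T cells, passed in 6 of 21 alternatives, with a lowest adjusted p of 0.00498. Among them were the fit without cko sample 3 (0.57, 0.0247) and that with the replicate block (0.41, 0.018).

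Both ligands of the PD-1 receptor rose in cko. Cd274, which encodes PD-L1, had 326, 341 and 277 CPM in cko, against 217, 137 and 169 CPM in ctr, with no overlap (0.91 ± 0.17, adjusted p = 0.00537). Pdcd1lg2, which encodes PD-L2, had 90.3, 78.7 and 64.4 CPM in cko, against 18.7, 14.2 and 25.4 CPM in ctr (2.07 ± 0.23, 0.000285). Both calls were lost with equal numbers of cells per sample (0.076 for Cd274 and 0.0638 for Pdcd1lg2). Of 20 tested genes of the suppressive and checkpoint list, 6 were higher and 3 lower, with a median of 0.27.

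The adenosine-producing enzyme Nt5e (1.38), the interleukin-1 receptor antagonist Il1rn, Lilr4b and Vegfa were the others called higher. The sialic acid receptor Siglece (-1.63), Vsir, which encodes the checkpoint VISTA, and the galectin Lgals9 were lower. The counts were the same with cko samples 1 and 3 added together. Without cko sample 1 only 1 gene was lower, with Siglece at an adjusted p of 0.066. Of 11 tested costimulatory ligands, Cd80, a ligand of CD28 and CTLA-4, was higher (1.31 ± 0.14, 5.26e-05). It had 60.6, 51.5 and 52.4 CPM in cko, against 22.1, 24.3 and 22.5 CPM in ctr. Icosl, the ligand of ICOS, was lower (-1.58 ± 0.19, 0.000134), as was the B cell survival factor Tnfsf13b (-0.74 ± 0.16, 0.00761), and the median was -0.27.

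Among 23 tested receptors for growth factors, chemokines and related ligands, of 26 listed, 4 rose in cko and 5 fell, with a median of 0.11. The adenosine receptor Adora2b had 43.0, 40.1 and 33.2 CPM in cko, against 26.0, 18.9 and 23.1 CPM in ctr (0.83 ± 0.18, adjusted p = 0.00742). Adora2a, which binds the same ligand, the shared cytokine receptor chain Csf2rb and the chemokine receptor Ccr1 also rose. Tgfbr2, a chain of the receptor of TGF-beta, had 33.3, 28 and 42 CPM in cko, against 62.5, 66.0 and 82.8 CPM in ctr (-0.95 ± 0.16, 0.00173). Neither gene overlapped between the groups. Cx3cr1, Tgfbr1, the nucleotide receptor P2ry6 (-0.93 ± 0.14, 0.00068) and the interleukin-10 receptor chain Il10ra also fell. The counts were 2 higher and 4 lower with cko samples 1 and 3 added together, 0 and 3 without cko sample 1, 2 and 3 without ctr sample 2, and 1 and 3 without ctr sample 3. The call for Adora2b was lost without cko sample 1 (0.0595).

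Genes induced by interferon gamma were higher in cko in 12 of 34 tested genes and lower in 1, against 7.64% and 5.08% of all genes tested, with a median of 0.28. Iigp1, an immunity GTPase, had 190.4, 276 and 190.3 CPM in cko, against 94.4, 125 and 119 CPM in ctr (1.01 ± 0.16, adjusted p = 0.00142). The signalling brake Socs1 rose by 1.00 ± 0.14 (0.000509), the guanylate-binding protein Gbp2 by 0.98 ± 0.20 (0.0145) and the kinase Jak2 by 0.96 ± 0.13 (0.000385). Gbp4, Gbp5, Gbp7, Gbp8, Cd274, Serpina3f and Batf2 were among the others, and Socs3 was lower. The count of higher genes was 10 with cko samples 1 and 3 added together and 8 in the band between 50 and 100 C1q UMIs per 10000, and 3 genes were lower without ctr sample 1.

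Of 38 tested genes of the type I interferon response, none was higher (2 at an unadjusted p under 0.05 and 0 by DESeq2) and the regulator Irf7 was lower (-0.66 ± 0.17, adjusted p = 0.0272), with a median of -0.08. Its call was lost without cko sample 1 (0.0578), ctr sample 2 (0.0741) or ctr sample 3 (0.064). Leaving out single samples moved the list between 0 and 3 genes higher and between 0 and 5 lower, and its median was above 0 without cko sample 2.

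Among genes of antigen presentation, the calls were close to the 12.7% of all genes tested. The groups did not overlap in 6 of 11 class II genes in the lower direction and 0 in the higher. In the 21 class I genes it was 3 lower and 7 higher, against 20% and 13.3% of all genes tested. Of 11 tested class II genes, 1 was called lower, the peptide loading chaperone H2-DMb1 (-0.39 ± 0.11, adjusted p = 0.0289), with a median of -0.21. H2-Aa had 10671, 11621 and 8635 CPM in cko, against 11729.5, 11899 and 11615 CPM in ctr (-0.13 ± 0.11, 0.509). H2-Ab1 had -0.13 ± 0.10 (0.442) and the class II regulator Ciita -0.33 ± 0.13 (0.128), which passed without ctr sample 1 (-0.42, 0.0354). The class II genes summed to 46756 to 61495 CPM in cko and 65402 to 67355 CPM in ctr. Of 21 class I genes, Nlrc5, their regulator (0.49 ± 0.14, 0.0288), and the proteasome activator Psme2 (0.35 ± 0.10, 0.0317) were higher. No class I or class II gene was called with cko samples 1 and 3 added together or without cko sample 1, and the 3 genes had adjusted p of 0.0826, 0.082 and 0.051 when those samples were added. Without cko sample 2, 4 class II genes were lower and 4 class I genes higher. The call for H2-DMb1 was also lost without cko sample 3 (0.106), ctr sample 2 (0.118) or ctr sample 3 (0.0803), that for Nlrc5 without cko sample 3 (0.11) or ctr sample 3 (0.101), and that for Psme2 without cko sample 2 (0.0658) or any ctr sample (0.0623 to 0.0905).

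Antioxidant and iron genes changed in both directions. Of 15 tested genes regulated by Nrf2, 5 were higher and 2 lower, with a median of 0.24. Srxn1 had 61.2, 29.5 and 50.4 CPM in cko, against 10.2, 8.09 and 8.08 CPM in ctr (2.51 ± 0.23, adjusted p = 3.30e-05). Thioredoxin reductase 1 (Txnrd1) had 144, 118 and 118 CPM in cko, against 52.2, 37.3 and 41.8 CPM in ctr (1.60 ± 0.15, 3.15e-05). Haem oxygenase 1 (Hmox1) went the other way, with 95.8, 99.1 and 101 CPM in cko, against 240.4, 157 and 264 CPM in ctr (-1.10 ± 0.18, 0.0026).

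None of these 3 genes overlapped between groups. Mgst1, Txn1 and Gsr (0.90, adjusted p = 0.025) were also higher and Tkt lower. The call for Gsr was lost without cko sample 1 (0.105), cko sample 2 (0.0871), ctr sample 2 (0.0712) or ctr sample 3 (0.077), and with cko samples 1 and 3 added together (0.0572). With those samples added, 4 genes were higher and 1 lower, and each sample left out but ctr sample 1 also took the count of lower genes to 1. In the iron list, 3 of 10 tested genes were higher, the ferritin chain Fth1 (0.53), the transferrin receptor Tfrc (1.05) and the biliverdin reductase Blvrb (0.52), and Hmox1 was lower, with a median of -0.17. The call for Tfrc was lost without cko sample 3 (0.107), and that for Blvrb without cko sample 1 (0.0536) or ctr sample 2 (0.052).

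Among 28 tested macrophage transcription factors, 6 were higher and 4 lower, with a median of 0.20. Hif1a (1.08) and the NF-kB subunit Nfkb1 (0.82 ± 0.13, adjusted p = 0.00119) led the rises, with Runx3, Klf4, Rel and Bhlhe40. Pparg, Cebpa, Spi1, which encodes PU.1, and Klf2 (-0.83 ± 0.22, 0.0381) were lower. The call for Klf2 was lost without cko sample 3 (0.0815) or any ctr sample (0.0764 to 0.0932). The counts were 4 higher and 3 lower with cko samples 1 and 3 added together, and 3 and 1 without cko sample 1. The count of lower genes was 1 without cko sample 3, ctr sample 2 or ctr sample 3.

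Some of these transcripts could come from other cells or from the preparation, and their part in the results was not tested. None of 13 tested T cell genes was called by edgeR (2 higher at an unadjusted p under 0.05, and 1 higher by DESeq2), and the list summed to 61.2 to 106 CPM in cko and 54.4 to 73.4 CPM in ctr. The natural killer list had 2 of 10 tested genes higher, Klrk1 (0.57, adjusted p = 0.0102) and Ccl5, with the call for Klrk1 lost without cko sample 1 (0.064). They summed to 2358 to 2555 CPM in cko and 1610.0 to 1975 CPM in ctr. Neutrophil genes had 3 of 5 tested higher, S100a8 (1.80, 0.00221), Il1r2 (1.05, 0.0423) and Acod1 (0.53, 0.0106). They summed to 557 to 575 CPM in cko and 299.6 to 414 CPM in ctr, with Mmp9 and Ly6g at 0. Without cko sample 1, 1 of the 3 was called, with Il1r2 at an adjusted p of 0.142 and Acod1 at 0.0502. The call for Il1r2 was also lost without cko sample 2 (0.144) or cko sample 3 (0.0814) and with cko samples 1 and 3 added together (0.11), and that for Acod1 without ctr sample 3 (0.0676).

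B cell genes had 2 tested and both lower, Cd79b and Ighm (-1.97, adjusted p = 7.05e-05), with Ighm at 22.4, 30.3 and 26.8 CPM in cko, against 78.1, 114 and 129 CPM in ctr. They summed to 32.0 to 213 CPM in cko and 111 to 169 CPM in ctr, with Pax5 at 0 and Cd79a at most 0.757 CPM. Of 15 tumour and stroma genes, 2 were tested and both higher, Cdh1 (1.87, 0.0011) and Pecam1 (1.66, 0.00718). They summed to 27.2 to 49.7 CPM in cko and 13.1 to 19.6 CPM in ctr, with the keratins Krt8, Krt19 and Krt20 and Cldn7 at 0. None of 7 dendritic cell genes was called by edgeR (1 at an unadjusted p under 0.05, and 2 higher by DESeq2), with summed levels of 989.9 to 1289 CPM in cko and 844 to 1182 CPM in ctr. No mast cell, basophil or red cell gene passed the filter, and these summed to at most 0.7997 CPM in cko and 1.62 CPM in ctr. Xist was at 0 in all 6 samples, and the Y-linked Ddx3y rose by 0.82 (0.00074).

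Of 23 tested genes that respond to tissue dissociation, 8 were lower in cko and 2 higher, with a median of -0.32. The heat shock gene Hspa1b had 347, 243 and 305 CPM in cko, against 654, 727 and 1012 CPM in ctr (-1.36 ± 0.18, adjusted p = 0.00116). Hspa1a (-1.29), Hsph1 (-1.17), Dnajb1 (-1.16), Hsp90aa1, Jun, Fos and Zfp36 were also lower, and Fosb and Ier3 higher. The list summed to 20355 to 23904 CPM in cko and 28921 to 30140 CPM in ctr, and whether handling differed was not tested. Proliferation genes, low in cells chosen without both Mki67 and Top2a, were lower in 8 of 18 tested and higher in none (2 at an unadjusted p under 0.05 and 0 by DESeq2), with a median of -0.71. The spindle genes Birc5 and Stmn1 and the cyclin Ccnb2 had means of 1.42, 2.01 and 0.533 CPM in cko and 10.7, 11.8 and 9.05 CPM in ctr. The count of lower genes was 6 with cko samples 1 and 3 added together, 4 without cko sample 1 or cko sample 3, 5 without ctr sample 3, and 1 of 9 in the band.

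Further calls ended at other C1q limits or with equal numbers of cells. At C1q of at least 100 per 10000 they were those for Nlrp3, Ddx3y, Adora2b, Ass1, Pparg, Ero1l, Dnajb1, Birc5, Gpnmb, Il1r2, Psme2, Hspa1a, Siglece, Ccl5, Gsr, Lgmn, Tgfbr2, Klrk1, Tnfsf13b, Nfkb1, H2-DMb1, Klf2, Cx3cr1, Ch25h, Nt5e, Cxcl2, Ccl3, Ccl4 and Nlrc5, with adjusted p of 0.0511 for Nlrp3 to 0.589 for Nlrc5. In the band between 50 and 100 they were those for Klf2, Hpgds, Lgmn, Ighm, Gbp2, Hsph1, Cdh1, Ass1, Ccl3, Acp5, Gsr, Cx3cr1, Hspa1a, Tfec, Psme2, Adam8, Hmox1, Apoc2, Hspa1b, Tfrc, Cxcl2, Gpnmb, Blnk, Irf7, Adora2b, Acod1, Tnfsf13b, Odc1 and Il1r2, with 0.051 for Klf2 to 0.666 for Il1r2. With equal numbers of cells they were those for Siglece, Nlrc5, H2-DMb1, Apoc2, Irf7, Dnajb1, Tnfsf13b, Blvrb, Tfrc, Socs1, Cx3cr1, Lgmn, Acod1, F10, Ccl4, Tfec, Ccl3, Ero1l, Psme2, Spp1, Il1r2 and Ccl5, with 0.0517 for Siglece to 0.431 for Ccl5. At C1q of at least 30 the calls for Irf7 (0.053) and Ighm (0.488) ended, and after thinning before the gate those for Psme2 (0.0686), Stmn1 (0.145), Tfrc (0.257) and Spp1 (0.39). The call for Birc5 was lost without cko sample 3 (0.0503).

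The share of cells with a transcript was compared after thinning each cell to 3000 UMIs, which left out 12, 7 and 22 cko cells and 69, 74 and 71 ctr cells. Arg1 was found in 58.1%, 61.3% and 68.0% of cko cells, against 47.4%, 37.8% and 43.3% of ctr cells, and in 0.830% to 1.57% of T cells thinned alike. Vegfa was found in 78.1 ± 1.44% of cko cells and 42.2 ± 7.36% of ctr cells (SD, n = 3 each), with 0.830% to 3.25% of T cells. Tmem176b was found in 19.0 ± 0.470% of cko cells and 55.8 ± 1.76% of ctr cells, with 3.64% to 9.95% of T cells. In these 3 genes the groups did not overlap, which gives an exact permutation p = 0.1.

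Slc7a2 was found in 19.1 ± 3.25% of cko cells and 2.64 ± 0.859% of ctr cells, and Inhba in 21.4 ± 1.54% of cko cells and 5.44 ± 1.11% of ctr cells. Il1b was found in 95.9 ± 3.19% of cko cells and 80.1 ± 4.06% of ctr cells. These too had an exact permutation p = 0.1. Slc7a2, Inhba and Tmem176b had been picked for summed levels that did not overlap in the same cells. Their p is therefore no separate evidence. Without thinning the shares were 70.9% in cko and 50.7% in ctr for Arg1, 88.2% and 55.3% for Vegfa, and 27.6% and 68.6% for Tmem176b. Cx3cr1 was found in 10.7 ± 3.83% of cko cells and 37.9 ± 10.1% of ctr cells, but the cko share lay near the 7.19% to 9.87% of T cells.

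Other leading genes had cko shares within or below those of T cells thinned alike, so their shares alone do not show expression in these cells. The T cell shares can include transcripts made by T cells, as for Il7r, so they are not a measured background here. Ramp3 was found in 9.85 ± 2.78% of cko cells and 0.661 ± 0.220% of ctr cells, against 5.36% to 12.3% of T cells. Pdcd1lg2 was found in 14.9 ± 3.17% of cko cells and 3.84 ± 1.16% of ctr cells, against 14.8% to 18.5% of T cells. Il7r, which T cells express, was found in 16.2 ± 4.53% of cko cells and 3.58 ± 0.230% of ctr cells, against 27.9% to 39.8% of T cells. Bag3 was found in 7.41 ± 1.24% of cko cells and 16.9 ± 1.95% of ctr cells, against 6.23% to 21.1% of T cells. With cells holding a T cell receptor contig or a T cell transcript left out, the log2 fold changes were 3.58 for Ramp3 (adjusted p = 0.000688), 2.09 for Pdcd1lg2 (0.00031), 2.48 for Il7r (0.011) and -1.87 for Bag3 (0.000108).

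Arg1 and Cx3cr1 were also counted together in each cell. At 3000 UMIs, cells with Arg1 alone were 53.3%, 59.9% and 60.97% in cko, against 36.3%, 20.5% and 30.2% in ctr. Cells with Cx3cr1 alone were 6.67%, 5.11% and 7.06% in cko, against 15.8%, 29.3% and 27.2% in ctr. Cells with both were 4.76%, 1.46% and 7.06% in cko and 11.1%, 17.3% and 13.2% in ctr. The groups did not overlap in any of these 3 classes, which are built from the single-gene shares above. If Arg1 and Cx3cr1 were found independently, cells with both would be 6.64%, 4.03% and 9.61% in cko. In ctr they would be 12.7%, 17.6% and 17.5%.

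The genotype effect was then compared with that in the C1q-low cells of the same samples, with an interaction term and sample as a block. The 2 kinds of cell were split by C1q, and above the limit cko cells held less C1q than ctr cells. This comparison was not repeated at other C1q limits, so the part of the C1q level in it was not tested. Of 10787 genes tested, 129 differed (1.2%), 81 with a higher effect in the C1q-high Ccl8-low cells (0.751%) and 48 with a lower one (0.445%). Of the 1231 genes called in C1q-high Ccl8-low cells, 88 were among them. C1q-low cells had 929 of 10742 genes called on their own (8.65%). Arg1 (difference 0.48, adjusted p = 0.337), Slc7a2 (0.14, 0.857), Tmem119 (-0.33, 0.716) and Cx3cr1 (-0.17, 0.95) had no called difference between the 2 kinds of cell.

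Vegfa rose more in C1q-high Ccl8-low cells than in C1q-low cells, by 1.46 and 1.01 (difference 0.47 ± 0.08, SE, adjusted p = 0.00165). Its level in the cko samples was 831, 860.4 and 778 CPM in C1q-high Ccl8-low cells and 825, 779.8 and 745 CPM in C1q-low cells. In the ctr samples it was 369, 279 and 287 CPM in C1q-high Ccl8-low cells and 446, 369.8 and 399.9 CPM in C1q-low cells. Apoe fell in both, by 1.45 in C1q-high Ccl8-low cells and 1.94 in C1q-low cells (difference 0.50 ± 0.07, 0.000392). B3gnt5 rose by 2.52 in C1q-high Ccl8-low cells and 1.63 in C1q-low cells (0.89 ± 0.15, 0.00265). Tmem176a fell by 1.71 in C1q-high Ccl8-low cells and 1.09 in C1q-low cells (-0.58 ± 0.11, 0.00878), a difference lost without cko sample 1 (0.0517) or cko sample 2 (0.0596). Mmp19 (0.68, 0.0165) and Nrg1 (0.50, 0.0304) also rose more. Both differences were lost with cko samples 1 and 3 added together (0.063 for Mmp19 and 0.0714 for Nrg1) and without ctr sample 1 (0.0512 and 0.217), that of Mmp19 also without ctr sample 3 (0.115) and that of Nrg1 without cko sample 2 (0.109) or cko sample 3 (0.079).

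**Figure D5:**
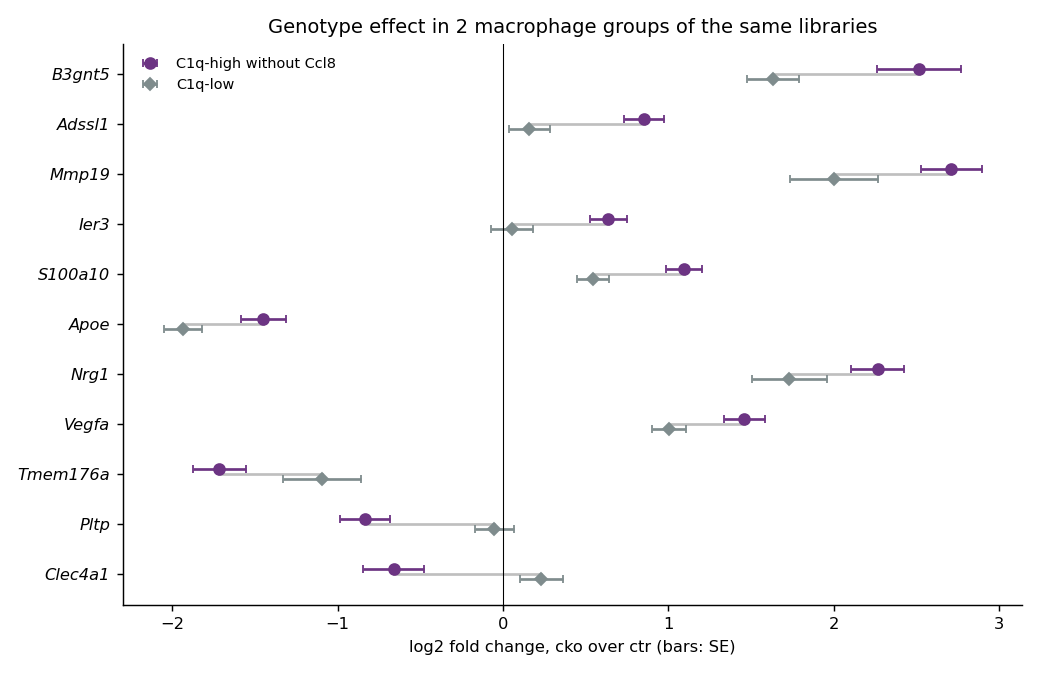
Log2 fold change (cko over ctr, with SE) in C1q-high Ccl8-low cells and in C1q-low cells, for 11 named genes whose genotype effect differed between them at an adjusted p under 0.05; Il12b, with no UMI in cko, is left out. Vegfa stands at 1.46 in C1q-high Ccl8-low cells and 1.01 in C1q-low cells, and Apoe at -1.45 and -1.94.

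Against Ccl8-positive cells, 50 of 8492 genes differed (0.589%), 18 higher (0.212%) and 32 lower (0.377%), and 23 of the 1175 tested genes called in C1q-high Ccl8-low cells were among them. The cko samples held 16, 4 and 37 Ccl8-positive cells, against 104, 92 and 156 in ctr, so these sums were shallow. Cx3cr1 fell by 1.86 in C1q-high Ccl8-low cells, while in Ccl8-positive cells it had 367, 358 and 279 CPM in cko, against 300.6, 522 and 429 CPM in ctr (-0.45, adjusted p = 0.44). The difference was -1.25 ± 0.24 (9.22e-05). Apoe had a log2 fold change of -1.45 in C1q-high Ccl8-low cells and -1.33 in Ccl8-positive cells, a difference of 0.01 ± 0.27 that was not called (adjusted p = 1). Differences for Tmem176b (-1.05, 0.00501), Cd79b (-1.77, 0.0104) and Ciita (-1.18, 0.0152) were each lost without cko sample 3 (0.0671, 0.331 and 0.546) and some other samples.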

How the data were processed

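The deposited values are raw UMI counts per gene and barcode, made by the authors with Cell Ranger 7.0.0 on mm10 (GRCm38), per the submitters' processing notes. The libraries used the Chromium 5′ kit with V(D)J enrichment, per the labels' protocols. Of 32285 gene IDs, 32158 were found in the annotation.

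From these counts, barcodes were filtered and chosen as described in the report, with no doublet removal, and counts of the chosen cells were summed per sample. edgeR 4.0.16 (R 4.3.3, limma 3.58.1) tested cko over ctr with TMM scaling, filterByExpr, robust quasi-likelihood fits and Benjamini-Hochberg adjustment over all genes tested, at 0.05. CPM values were not TMM-scaled. Interaction fits used sample as a block. Shares were compared by exact two-sided permutation over samples, after thinning to 3000 UMIs for single genes. Python 3.11.15, numpy 2.4.6, scipy 1.17.1, pandas 2.3.3, scanpy 1.11.5 and matplotlib 3.10.9 were used. The fits were tested on simulated counts.

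The cells, lists and tests were chosen with earlier results of these data known. Named were a set of key genes, and the 10 called genes of largest rise and of largest fall. These had at least 30 CPM in the higher group, no overlap between groups, and were not of the kinds of gene left out above. Also named were up to 4 called members of each list, up to 6 genes per interaction and up to 8 genes each way against other macrophages. Other genes, such as Hk2, Pgk1, Bnip3, Ddx3y and members listed by name, were named after their values were seen. Lists overlap: Ccl5, Thbs1, Vegfa, Hif1a, Hmox1, Clec4e and others stand in more than 1.

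Sums of replicate samples differed beyond counting noise, with a chi-square per degree of freedom of 2.47 to 10.1. The lowest value, 2.47, was that of cko samples 1 and 3. These values do not tell whether samples come from separate animals. Each was counted as 1 sample, as labelled. TMM factors were 0.956 to 1.04. Of the chosen cells, 1, 0 and 0 in cko and 3, 0 and 2 in ctr held a T cell receptor contig. Promoters came from RefSeq (GRCm38.p6). Alternatives covered scaling, DESeq2 1.42.0, low-count filters, the replicate block, added or left-out samples, the Ccl8 and C1q limits, doublet scores (the barcodes of highest Scrublet score removed, at a share that grows with their number), T cell transcripts and depth. Results for a few members of the lists are not reported here.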

Additional observations from a re-analysis of the deposited data

Results flagged for a closer look

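In 12 genes the genotype effect differed between the C1q-high Ccl8-low cells and other macrophages of the same samples, by the interaction test of edgeR with Benjamini-Hochberg adjustment. They are the 6 genes of smallest p in each of both tests.

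Against C1q-low cells, the early response gene Ier3 had a log2 difference of 0.59 ± 0.07 (SE) between both effects, with an adjusted p of 0.000258. It had 1557, 1756 and 1937 CPM in cko, against 1335, 1046 and 1125 CPM in ctr, in C1q-high Ccl8-low cells, and 1376, 1615 and 1756 CPM in cko, against 1763, 1298 and 1682 CPM in ctr, in C1q-low cells. The annexin partner S100a10 was higher in cko in both, by 1.10 in C1q-high Ccl8-low cells and 0.54 in C1q-low cells, a difference of 0.55 ± 0.07 (0.000259). The muscle-type adenylosuccinate synthase Adssl1 differed by 0.69 ± 0.09 (0.000259), with 131, 148 and 137 CPM in cko, against 90.1, 75.7 and 73.5 CPM in ctr, in C1q-high Ccl8-low cells. In C1q-low cells it had 152, 172 and 151 CPM in cko, against 174, 131 and 137 CPM in ctr.

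The lectin receptor Clec4a1 differed by -0.88 ± 0.12 (adjusted p = 0.000259), with a log2 fold change of -0.66 in C1q-high Ccl8-low cells and 0.23 in C1q-low cells. Pltp differed by -0.80 ± 0.11 (0.000259), with 119, 130.2 and 90.0 CPM in cko, against 208, 186 and 230.5 CPM in ctr, in C1q-high Ccl8-low cells. In C1q-low cells it had 88.2, 88.5 and 78.5 CPM in cko, against 100.5, 79.5 and 95.1 CPM in ctr. Il12b differed with an adjusted p of 0.000258 and no size, since C1q-high Ccl8-low cells had 0 UMIs in cko. In C1q-low cells it had 17, 21 and 2 UMIs in cko, against 1, 2 and 5 UMIs in ctr. None of these 6 calls was lost under the alternatives run for this comparison, which did not include other C1q limits.

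Against Ccl8-positive cells, of which the cko samples held 16, 4 and 37, the brain-type creatine kinase Ckb differed by -1.55 ± 0.22 (adjusted p = 3.09e-08). It had 46.7, 53.0 and 67.2 CPM in cko, against 117, 180.3 and 212 CPM in ctr, in C1q-high Ccl8-low cells, and 348, 512 and 448 CPM in cko, against 301, 468 and 371 CPM in ctr, in Ccl8-positive cells. The guanylate-binding protein Gbp2b differed by -1.44 ± 0.25 (1.63e-05), with a log2 fold change of -0.23 in C1q-high Ccl8-low cells, not called there (0.617), and 1.28 in Ccl8-positive cells. Both differences were called in each alternative run for this comparison.

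The lectin receptors Clec4b1 (-2.83 ± 0.46, adjusted p = 2.48e-06) and Klra17 (-3.08 ± 0.54, 1.63e-05) differed as well, and both calls were lost without cko sample 3 (0.0671 and 0.144). Klra17 had 0.606, 2.27 and 2.40 CPM in cko, against 12.2, 9.99 and 23.8 CPM in ctr, in C1q-high Ccl8-low cells, and 64.2, 25.6 and 78.7 CPM in cko, against 43.2, 47.5 and 79.5 CPM in ctr, in Ccl8-positive cells. Cxcl13 (2.49e-06) and Cxcl3 (4.46e-06) have no size, since 1 arm of the Ccl8-positive cells had no UMI. Cxcl13 had 41.2, 0 and 72.0 CPM in cko, against 0.180, 3.82 and 12.1 CPM in ctr, in C1q-high Ccl8-low cells, and its call was lost without cko sample 2 (0.68) or cko sample 3 (0.186). That of Cxcl3 was lost without cko sample 3 (0.629).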

How the results depend on the processing

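The 1231 calls in C1q-high Ccl8-low cells became 819 with cko samples 1 and 3 added together, 354 at C1q of at least 100 per 10000, 518 in the band of 50 to 100 and 520 with 144 cells per sample, and 538 to 1458 when single samples were left out. Higher calls were 242 at C1q of at least 100, 324 in the band, 298 with equal cells and 341 to 875 without single samples. Lower calls were 787 with no filter on low counts, 308 with the samples added, 112 at C1q of at least 100, 194 in the band, 222 with equal cells and 197 to 583 without single samples. The band and the equal cells were chosen after seeing the data. The replicate block gave 1268 calls, with 1126 of the 1231 kept, and of 100 called named genes only Psme2 was lost (adjusted p = 0.0517). It added a call for Cxcl9. Same-numbered samples shared only a number, with correlations of 0.012, -0.0074 and 0.078 between their deviations from the group means, and not every sample correlated best with its own number. Upper-quartile scaling split the calls 633 higher and 606 lower (51.1% higher, against 60.03%), no filter gave 53.5% higher with a median of -0.11, and DESeq2 gave 675 and 352, with 978 calls kept. No call turned into a call of the opposite sign in any alternative. The difference in the share of kept cells was -2.75 percentage points in the band. That in the share of monocytes and macrophages was -20.3 at 0 UMIs of Ccl8, -19.0 at C1q of at least 100 and -4.62 in the band. In C1q-high cells it was -0.584 in the band, against 6.14. Differences of the genotype effect from C1q-low cells numbered 271 with no filter, 65 with the samples added and 47 to 130 without single samples, and from Ccl8-positive cells 24 to 47 without single samples. Among genes not called, Mrc1 had -0.038 under upper-quartile scaling, -0.0098 with DESeq2, -0.021 with no filter, -0.028 with the samples added, -0.30 in thinned cells, -0.18 with equal cells and -0.27 to 0.25 without single samples. Maf had 0.29 in the band, Cxcl10 0.36 with equal cells, Il10 0.072 at C1q of at least 30, Tgfb1 -0.040 and Ctcf 0.20 at C1q of at least 100, and Ctcf 0.040 without cells holding T cell transcripts. Without single samples Mertk ran from -0.50 to 0.078, H2-Aa from -0.23 to 0.0088, Ccl2 from -0.59 to 0.080 and Tgfb1 from -0.013 to 0.11. The cause was not tested in any of these. Depth limits the cko sums most, since they hold fewer cells than the ctr sums.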

Other observations

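Of 14 tested complement genes other than C1q, 2 were higher and 1 lower in cko in C1q-high Ccl8-low cells, against 7.64% and 5.08% of all genes tested, with a median log2 fold change of 0.09. Properdin (Cfp), which stabilises the alternative pathway, had 352, 368 and 344 CPM in cko, against 226, 245 and 233 CPM in ctr, with no overlap (0.65 ± 0.10, SE, adjusted p = 0.000913). C3 had 408, 319 and 425 CPM in cko, against 330.2, 289 and 288 CPM in ctr (0.40 ± 0.12, 0.0398), and its call was lost without cko sample 1 (0.177), cko sample 3 (0.135), ctr sample 2 (0.149) or ctr sample 3 (0.146). The anaphylatoxin receptor C3ar1 had 174, 158 and 238 CPM in cko, against 239, 325 and 347 CPM in ctr (-0.61 ± 0.16, 0.0238), lost without cko sample 1 (0.128), cko sample 2 (0.0835), ctr sample 2 (0.0678) or ctr sample 3 (0.082). Both calls were also lost with cko samples 1 and 3 added together (0.128 for C3 and 0.0505 for C3ar1). Without cko sample 3, 2 complement genes were lower.

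Of 16 tested genes of efferocytosis, the uptake of dead cells, 2 were higher and 0 lower (1 at an unadjusted p under 0.05 and 0 by DESeq2), with a median of 0.10. Transglutaminase 2 (Tgm2) had 526, 572 and 565 CPM in cko, against 386, 287 and 316 CPM in ctr (0.81 ± 0.12, adjusted p = 0.000732). The receptor Gpr132 had 235, 211 and 186 CPM in cko, against 156, 131 and 105 CPM in ctr (0.74 ± 0.15, 0.00601). The list held 4 higher genes without ctr sample 1, and its median was -0.09 without cko sample 3. Of 6 tested Fc receptor genes, the neonatal Fc receptor Fcgrt was lower, with 48.5, 46.2 and 48.4 CPM in cko, against 81.5, 73.0 and 92.6 CPM in ctr (-0.73 ± 0.14, 0.00295). Among 10 tested genes of resident scavenger macrophages, the selenium carrier Selenop was lower, with 118, 103 and 158 CPM in cko, against 341, 249.6 and 255 CPM in ctr (-1.09 ± 0.16, 0.00108). Lyve1, Timd4, Vsig4 and Cd209f of that list were at 0. Its count of lower genes was 2 without cko sample 3, ctr sample 2 or ctr sample 3, and 1 gene was higher without ctr sample 3. The calls for Gpr132 (0.0917), Fcgrt (0.116) and Selenop (0.0863) were lost in the band between 50 and 100 C1q UMIs per 10000.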
